A study of Mus musculus with 12 samples.

Results

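Transcripts of 10 immediate-early transcription factor genes (Fos, Fosb, Jun, Junb, Jund, Egr1, Egr2, Egr3, Atf3 and Nr4a1) were followed through 12 bulk RNA-seq libraries of the mouse basophil lineage. The genes were chosen by name, as the members of the AP-1, EGR and related families that respond to activation and also to cell dissociation, and they are 10 of the 32227 genes in the count table. All 10 passed the filter on low counts that left 15083 genes for testing. The cells came from wild-type C57BL/6J mice, and 3 libraries were made for each of 4 sorted populations. Basophil progenitors (BaPs) were CD200R3+ cKit- CLEC12A-high CD34+ bone marrow cells. Pre-basophils, which the sample labels call immature basophils, were CD34- CLEC12A-high CD9-low bone marrow cells. Mature basophils were CD34- CLEC12A-low CD9-high cells, taken from the bone marrow (BM mature) or from the spleen (spleen mature). No population received a treatment. Each library was prepared from sorted cells of pooled animals, the number of cells lysed differed between libraries, and the sources used here do not give the age of the mice.

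Immediate-early genes are transcribed within minutes of a signal, without new protein synthesis, and most of their transcripts are short-lived. FOS proteins pair with JUN proteins to form AP-1, a leucine zipper dimer that binds DNA, whereas EGR proteins bind through zinc fingers, ATF3 is a leucine zipper protein induced by stress, and NR4A1 is an orphan nuclear receptor. In basophils and mast cells, crosslinking of the high-affinity IgE receptor signals through MAP kinases, calcium and NFAT to such genes, which act ahead of cytokine genes such as Il4 and Il6. The same genes are also known to be induced while tissue is dissociated and sorted, and no library of undisturbed cells was among the 12, so that transcript levels set in the animal and levels set during preparation cannot be told apart.

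Of the 10 genes, 8 had at least 1 promoter window in the RefSeq table for GRCm38.p6. Egr1 and Egr3 had none and were not searched. The 250 bases upstream of the transcription start are shown for 5 of these genes (Fos, Fosb, Jun, Junb and Egr2), with matches to the motifs searched on both strands in capitals. These motifs were TGACG, the core of the cyclic AMP response element and contained in its full form, TGANNTCA, which that full form also matches, TGANTCA, the AP-1 site, GCGNGGGCG, the EGR site, TATAAA and the CArG box, the site of serum response factor.
Fos, chr12:85473640-85473889, plus strand: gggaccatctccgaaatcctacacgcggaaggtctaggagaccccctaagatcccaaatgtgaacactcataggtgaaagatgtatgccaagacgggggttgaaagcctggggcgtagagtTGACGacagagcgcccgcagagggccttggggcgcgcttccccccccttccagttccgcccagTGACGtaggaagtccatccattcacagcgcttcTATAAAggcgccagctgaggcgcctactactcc
Fosb, chr7:19310046-19310295, minus strand: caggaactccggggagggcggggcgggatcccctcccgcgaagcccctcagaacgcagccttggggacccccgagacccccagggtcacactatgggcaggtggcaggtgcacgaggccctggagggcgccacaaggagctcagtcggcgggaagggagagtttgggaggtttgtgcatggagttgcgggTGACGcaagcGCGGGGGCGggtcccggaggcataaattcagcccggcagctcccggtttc
Jun, chr4:95052223-95052472, minus strand: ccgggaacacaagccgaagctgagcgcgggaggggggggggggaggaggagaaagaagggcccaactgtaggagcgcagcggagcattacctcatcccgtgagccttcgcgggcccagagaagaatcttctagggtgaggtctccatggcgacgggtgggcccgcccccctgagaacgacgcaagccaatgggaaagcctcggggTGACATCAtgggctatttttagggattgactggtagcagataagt
Junb, chr8:84978749-84978998, minus strand: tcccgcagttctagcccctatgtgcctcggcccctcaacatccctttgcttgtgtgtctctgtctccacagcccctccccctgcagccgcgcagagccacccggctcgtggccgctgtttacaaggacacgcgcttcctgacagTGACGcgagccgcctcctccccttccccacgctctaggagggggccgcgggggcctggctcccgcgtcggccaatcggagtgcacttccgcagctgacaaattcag
Egr2, chr10:67537619-67537868, plus strand: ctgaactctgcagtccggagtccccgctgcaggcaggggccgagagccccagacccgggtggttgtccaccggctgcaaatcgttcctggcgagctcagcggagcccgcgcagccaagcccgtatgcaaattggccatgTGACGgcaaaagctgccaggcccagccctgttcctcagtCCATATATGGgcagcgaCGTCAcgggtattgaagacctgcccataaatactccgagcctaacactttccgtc

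TGACG occurred in a window of 6 of the 8 genes (Fos, Fosb, Junb, Egr2, Atf3 and Nr4a1), and in 19.8% of the 27025 genes with a window. TGANNTCA occurred in Jun, as TGACATCA 45 bases upstream of the start, and in Jund, and in 13.5% of all genes. The EGR site was matched in Fosb and Nr4a1 against 5.33% of all genes, TATAAA in Fos against 14.3%, and the CArG box in Egr2 alone against 1.62%. TGANTCA was in none of the 8 genes and in 7.82% of all genes. Egr2 had 5 windows in the table, of which 1 of those with the most matches is shown, and the other genes had 1, so that its chance of a match was larger. These matches describe the letters of the 250-base windows only. Sites further upstream or within the genes were not searched, and no binding was measured.

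The libraries held between 3596108 and 8151030 counts. The 9 basophil markers examined, including Mcpt8 and Prss34, were detected in all 12 libraries. The sum of their levels was 5462 to 6183 CPM (reads scaled to a common library size, with totals adjusted by TMM, the trimmed mean of M values) in spleen mature basophils and reached 69710 CPM in pre-basophils. Markers of mast cells, a related lineage, summed to at most 5.62 CPM over the 3 of 5 genes in the table. BaP replicate 3 stood apart. It had 26743 detected genes against 21911 to 24704 in the other 11 libraries, 3.53% mitochondrial counts against 0.9998% to 1.82%, 380 CPM of the 8 T cell markers against 15.2 to 37.4 CPM, 2400 CPM of the 6 erythroid markers against 8.84 to 260 CPM, and 25061 CPM of basophil markers, below all other bone marrow BaP and pre-basophil libraries. The differences of the 10 genes that involve BaPs, and the list counts, are therefore given with and without this library, whereas the ranks and profile correlations below include it. Shares of all genes called are given only for the fit with all 12 libraries. Mitochondrial counts also differed by stage, with 1.75% or more in BaPs, 1.53% to 1.64% in pre-basophils, 1.19% to 1.31% in BM mature and 0.9998% to 1.21% in spleen mature basophils. The erythroid sum was 8.84 and 11.3 CPM in BaP replicates 1 and 2, against 42.8 to 56.0 CPM in pre-basophils and 184 to 203 CPM in BM mature basophils. The 9 neutrophil markers moved the opposite way to the 10 genes. Their sum was 1966 to 2426 CPM in BaPs and lay between 998.1 and 2331 CPM in pre-basophils, against 90.6 to 127.3 CPM in BM mature and 60.49 to 68.92 CPM in spleen mature basophils, and all 9 were higher in BaPs and in pre-basophils than in BM mature basophils. Of the 7 monocyte and macrophage markers, 3 were higher in BaPs than in pre-basophils, and 5 were higher and 1 lower in BaPs than in BM mature basophils, although their sum was 112.1 to 148.5 CPM in BaPs against 166.2 to 184 CPM in BM mature basophils. Of the neutrophil sum in BaPs, Mpo held 1792, 1402 and 562.3 CPM in replicates 1 to 3. S100a9 went the other way, at 44.7, 227 and 605 CPM, as did Ngp at 16.0, 106 and 401 CPM. Ltf, Camp, S100a8, Lcn2 and Mmp8 also rose from replicate 1 to replicate 3 in BaPs, and Elane did not. In pre-basophils S100a9 was at 117, 280 and 609 CPM. Ms4a6c held 119, 127.1 and 68.65 CPM of the monocyte and macrophage sum in BaP replicates 1 to 3. Each other marker of that list held at most 9.01 CPM in these BaP libraries. Other cells and transcripts of the sorted cells themselves therefore cannot be told apart in these sums. The part of these marker transcripts and of the mitochondrial share in the results below was not tested.

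The 10 genes together took a growing share of the library from progenitors to mature cells. They made up 2.53%, 2.60% and 2.20% of all counts in BaP replicates 1 to 3 (2.44% ± 0.209, SD, n = 3). The share was 3.35%, 3.56% and 3.79% in pre-basophils (3.57% ± 0.222), and 7.30%, 6.60% and 7.07% in BM mature basophils (6.99% ± 0.356). In spleen mature basophils it reached 8.81%, 8.41% and 9.68% (8.96% ± 0.646). The 4 groups did not overlap in this share. Because the share is a sum over the chosen genes, it is given as a description without a test. In such bulk samples, fewer expressing cells and fewer transcripts per cell cannot be told apart.

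**Figure D1:**
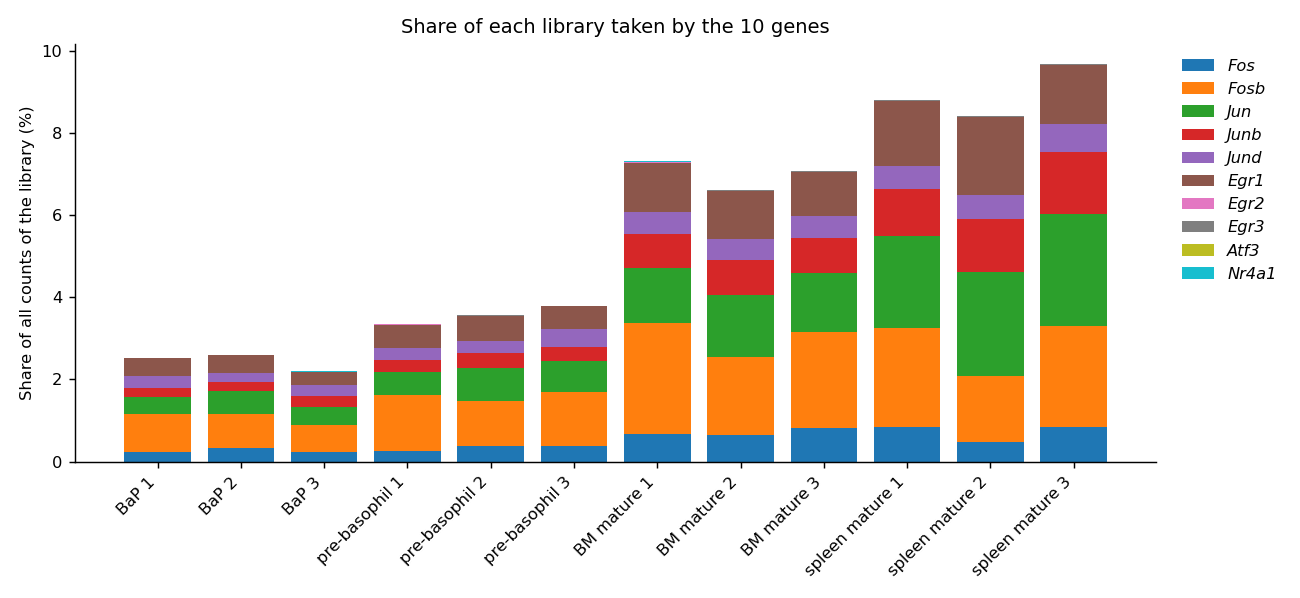
Stacked bars give the share of all counts (y axis, percent) that each of the 10 genes took in each of the 12 libraries (x axis). The bars rise from 2.20% to 2.60% in BaPs to 8.41% to 9.68% in spleen mature basophils, and Egr2, Egr3, Atf3 and Nr4a1 are too scarce to form a visible band.

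The 10 genes fell into an abundant and a scarce set, at mean levels of 2067 CPM or more and 140.9 CPM or less in every population. The ranks below assume that reads scale with exon length, which was not tested. Their order can differ from that in CPM, where Fosb stood above Jun in BM mature basophils (26763 against 16468 CPM). When mean CPM was divided by exon length and 14635 tested genes with a known length were ranked, Jun, whose protein is the archetypal JUN subunit, stood at rank 35 in BaPs, 21 in pre-basophils, 8 in mature cells of the marrow and 5 in those of the spleen, where it reached 8235 CPM per kilobase. Junb moved from rank 51 to rank 8 between BaPs and spleen, and Jund from rank 36 to rank 11. Egr1 moved from rank 63 to rank 12, Fos from rank 50 to rank 16, and Fosb from rank 42 to rank 14. Thus 6 of the 10 genes were within the first 63 ranks in every population. The other 4 were far below them. In spleen, Egr3 had 32.0 CPM per kilobase (rank 1413), Egr2 29.9 (rank 1515), Nr4a1 20.4 (rank 2126) and Atf3 14.8 (rank 2815). The lowest count of any of the 10 genes was 53 reads in 1 library and the highest 222381 reads, so the scarce set carries the larger counting error.

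Among the FOS genes, both Fos and Fosb were higher in mature than in immature cells of the marrow. Fos, the partner of JUN proteins in classical AP-1, was at 2077, 2929 and 1811 CPM in BaPs, at 2600, 3620 and 3918 CPM in pre-basophils, at 8068, 6869 and 9643 CPM in BM mature and 8472, 4958 and 9146 CPM in spleen mature basophils. All BaP and pre-basophil libraries lay below all mature libraries, BaPs and pre-basophils overlapped, and spleen replicate 2 was the lowest mature library. Fosb, which encodes a second FOS protein, was at 8701, 7451 and 5004 CPM in BaPs, at 13580, 10371 and 13114 CPM in pre-basophils, at 31951, 20520 and 27817 CPM in BM mature and 24526, 17001 and 26562 CPM in spleen mature basophils. Its BaP, pre-basophil and mature libraries did not overlap, while the mature groups overlapped each other, again with spleen replicate 2 lowest. The share of all tested genes whose groups do not overlap is not given, here or below, so non-overlap is description only. The group means ran, from BaPs to spleen, 2272 ± 584, 3379 ± 691, 8193 ± 1391 and 7526 ± 2249 CPM for Fos. For Fosb they were 7052 ± 1881, 12355 ± 1734, 26763 ± 5788 and 22696 ± 5036 CPM.

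The JUN genes rose at each step in the marrow, and Jun and Junb rose again in the spleen. Jun was at 3799, 4968 and 3498 CPM in BaPs, at 5638, 7609 and 7332 CPM in pre-basophils, at 16156, 16228 and 17019 CPM in BM mature and 22654, 26600 and 29532 CPM in spleen mature basophils. No 2 of its 4 groups overlapped. Junb, which encodes a JUN protein with weaker activating function, was at 2091, 1979 and 2131 CPM in BaPs, at 3082, 3462 and 3578 CPM in pre-basophils, at 9851, 9107 and 9947 CPM in BM mature and 11785, 13443 and 16258 CPM in spleen mature basophils. It too was separated in all 4 groups, with a coefficient of variation of 3.79% among the BaP libraries. Jund, the JUN gene that many resting cells express, was at 2481, 1815 and 2062 CPM in BaPs, at 2900, 2740 and 4216 CPM in pre-basophils, at 6158, 5539 and 6476 CPM in BM mature and 5659, 6313 and 7490 CPM in spleen mature basophils. Its 3 marrow groups did not overlap, whereas the BM and spleen libraries did.

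All 3 EGR genes increased from BaPs to mature cells, although at very different abundance. Egr1 was at 4100, 3867 and 2401 CPM in BaPs, at 5698, 5802 and 5585 CPM in pre-basophils, at 14437, 12451 and 12629 CPM in BM mature and 15923, 19835 and 15437 CPM in spleen mature basophils. None of its groups overlapped, and the pre-basophil libraries differed least from each other (5695 ± 109 CPM). Egr2, a zinc finger factor also known from restraint of lymphocyte responses, was at 30.8, 36.5 and 24.0 CPM in BaPs, at 46.1, 64.3 and 54.5 CPM in pre-basophils, at 57.9, 68.9 and 75.6 CPM in BM mature and 105, 113 and 86.6 CPM in spleen mature basophils. Its pre-basophil and BM mature libraries overlapped and the other neighbouring groups did not. Egr3, its close relative, was at 32.5, 28.3 and 20.4 CPM in BaPs, at 61.2, 64.5 and 51.2 CPM in pre-basophils, at 130, 79.1 and 100.9 CPM in BM mature and 173, 133 and 116 CPM in spleen mature basophils. The BM and spleen groups of Egr3 overlapped and the marrow groups did not. Egr1 held 97.8% to 98.8% of the summed counts of the 3 EGR genes in every library.

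Atf3 and Nr4a1 were low and varied within groups. Atf3 was at 17.7, 15.1 and 33.0 CPM in BaPs, at 20.7, 17.0 and 31.5 CPM in pre-basophils, at 51.6, 15.5 and 55.6 CPM in BM mature and 34.6, 20.8 and 40.2 CPM in spleen mature basophils. Every group overlapped every other, and replicate 2 was the lowest library in each of the 4 groups. Nr4a1 was at 17.7, 12.5 and 106.5 CPM in BaPs, at 33.8, 25.1 and 38.5 CPM in pre-basophils, at 59.2, 43.3 and 58.6 CPM in BM mature and 67.4, 90.1 and 57.0 CPM in spleen mature basophils. BaP replicate 3 was thus the highest of all 12 libraries for Nr4a1 while the other 2 BaP libraries were the lowest. It was the same library that held the T cell and erythroid transcripts given above, whose part in this value was not tested.

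**Figure D2:**
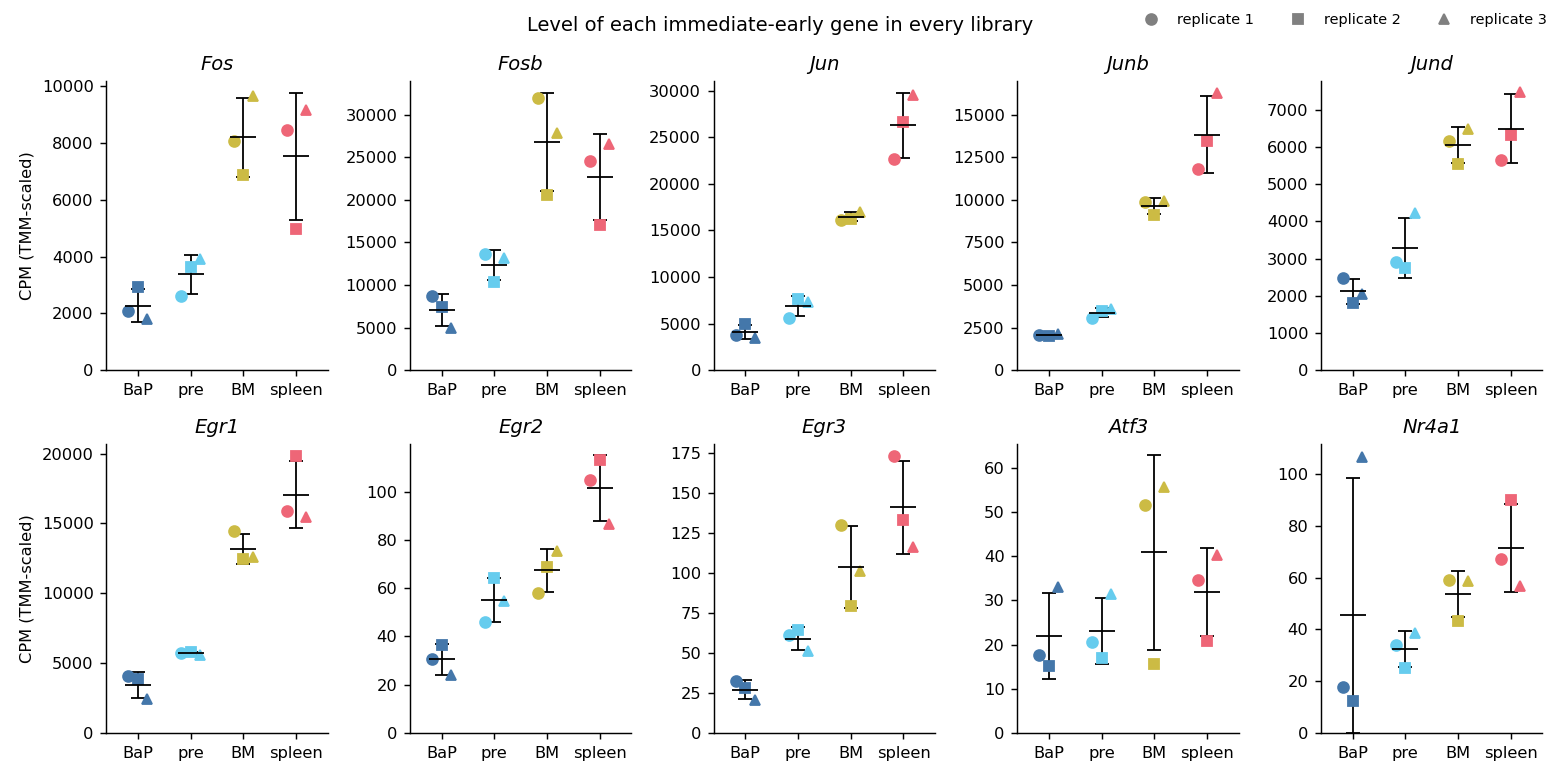
Each panel shows 1 gene, with TMM-scaled CPM on a y axis that starts at 0 and the groups BaP, pre-basophil (pre), BM mature (BM) and spleen mature (spleen) on the x axis. Symbols are single libraries, the horizontal line is the mean of 3 libraries and the bars are the SD, drawn no lower than 0. Jun, Junb and Egr1 separate all 4 groups, whereas the Nr4a1 panel shows BaP replicate 3 at 106.5 CPM above the other 2 BaP libraries at 17.7 and 12.5 CPM. The share of all tested genes that separate the 4 groups is not given.

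Differences among the 4 populations were tested with edgeR's quasi-likelihood F test on all 15083 genes, with Benjamini-Hochberg adjustment over all of them. For 8 of the 10 genes some difference among groups had an adjusted p under 0.05, against 57.8% of all tested genes. The adjusted p-values of the 8 genes in edgeR ranged from 1.35e-08 for Junb to 4.96e-05 for Fos. Atf3 (adjusted p = 0.222) and Nr4a1 (adjusted p = 0.336) did not pass in edgeR. Without BaP replicate 3 all 10 passed, and the share of all genes in that fit is not given. The comparisons below share groups with each other and are not independent.

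Pre-basophils and BM mature basophils, the adjacent stages of the marrow, differed in 7 of the 10 genes, all lower in pre-basophils. Over all genes, 11.0% were called lower and 16.3% higher in pre-basophils. The median log2 difference of the 10 genes (pre-basophil minus BM mature) was -0.999, beside -0.004 over all tested genes. Junb had the largest difference, 2.86-fold lower in pre-basophils (log2 -1.51, SE 0.13, edgeR adjusted p = 4.47e-06). It was followed by Fos at 2.42-fold (adjusted p = 0.00157 in edgeR) and Jun at 2.401-fold lower (adjusted p = 8.87e-05 in edgeR). Egr1 was 2.31-fold lower (edgeR adjusted p = 0.000264), Fosb 2.17-fold (edgeR adjusted p = 0.0026) and Jund 1.84-fold (edgeR adjusted p = 0.00217). Egr3 was 1.75-fold lower (edgeR adjusted p = 0.0108), a call that was lost without pre-basophil replicate 3 (adjusted p = 0.0532) or BM mature replicate 1 (adjusted p = 0.0666). Egr2 differed by log2 -0.30 with a 95% confidence interval from -0.67 to 0.08 (edgeR adjusted p = 0.234).

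Atf3 and Nr4a1 did not pass in the comparison of pre-basophils with BM mature basophils. Atf3 differed by log2 -0.81 (95% interval -1.71 to 0.10, edgeR adjusted p = 0.176). Same-numbered marrow libraries deviated together, and with the replicate number as a block the Atf3 difference was -0.74 (edgeR adjusted p = 0.0276). Without BM mature replicate 2, the lowest library of its group, it was -1.19 (edgeR adjusted p = 0.0297). Nr4a1 differed by log2 -0.72 (95% interval -1.93 to 0.49, edgeR adjusted p = 0.378), although its pre-basophil libraries all lay below its BM mature libraries. In the fit without BaP replicate 3 the Nr4a1 difference was -0.71 (edgeR adjusted p = 0.00751).

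BaPs differed from pre-basophils in 7 of the 10 genes, all lower in BaPs, where 4.29% of all genes were called lower and 2.79% higher. The median log2 difference of the 10 genes (BaP minus pre-basophil) was -0.71, beside 0.022 over all genes. Egr3 was 2.20-fold lower in BaPs (log2 -1.14, SE 0.22, edgeR adjusted p = 0.00777). Egr2 was 1.82-fold lower (edgeR adjusted p = 0.0123), Fosb 1.75-fold (edgeR adjusted p = 0.0475) and Jun 1.68-fold (edgeR adjusted p = 0.0159). Egr1 was 1.65-fold lower (edgeR adjusted p = 0.0286), Junb 1.63-fold (edgeR adjusted p = 0.00631) and Jund 1.55-fold (edgeR adjusted p = 0.0452). Fos had a log2 difference of -0.57 (95% interval -1.09 to -0.06, edgeR adjusted p = 0.17). Atf3 had a difference of -0.05 with a wide interval, from -0.96 to 0.86 (edgeR adjusted p = 0.967).

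Without BaP replicate 3 the same 7 genes were still lower in BaPs, by log2 -0.51 (Egr1) to -0.94 (Egr3), and Nr4a1 was added. Nr4a1 turned from a log2 difference of 0.54 (95% interval -0.65 to 1.74, edgeR adjusted p = 0.62) to -1.11 (edgeR adjusted p = 0.00733). The number of genes called between BaPs and pre-basophils depended on single libraries. Leaving out pre-basophil replicate 1, 2 or 3 gave 4, 2 and 3 genes, and leaving out BaP replicate 1, 2 or 3 gave 7, 5 and 8. Egr3 and Junb passed in each of these 6 fits, for which the share of all genes called is not given.

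Over the whole marrow series, BaPs and BM mature basophils differed in 8 of the 10 genes, all lower in BaPs, where 19.7% of all genes were called lower and 25.3% higher. The median log2 difference of the 10 genes (BaP minus BM mature) was -1.89, beside 0.049 over all genes. Junb was again first, 4.66-fold lower in BaPs (log2 -2.22, SE 0.14, edgeR adjusted p = 6.74e-08), followed by Jun at 4.03-fold (edgeR adjusted p = 8.2e-07). Egr3 was 3.86-fold lower (edgeR adjusted p = 9.29e-06), Egr1 3.81-fold (edgeR adjusted p = 2.38e-06) and Fosb 3.79-fold (edgeR adjusted p = 1.89e-05). Fos was 3.61-fold lower (edgeR adjusted p = 4.23e-05), Jund 2.86-fold (edgeR adjusted p = 1.46e-05) and Egr2 2.24-fold (edgeR adjusted p = 0.000142). These 8 differences ranged from log2 -1.001 (Egr2) to -2.23 (Junb) without BaP replicate 3.

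Atf3 and Nr4a1 were the 2 genes that did not pass between BaPs and BM mature basophils with all libraries. Atf3 had a log2 difference of -0.86 (95% interval -1.75 to 0.03, edgeR adjusted p = 0.108), which was -0.83 with the replicate block (edgeR adjusted p = 0.00922). It was -1.25 without BM mature replicate 2 (edgeR adjusted p = 0.0129). Nr4a1 had a difference of -0.18 (95% interval -1.35 to 0.997, edgeR adjusted p = 0.82). Without BaP replicate 3 both were lower in BaPs, Nr4a1 by log2 -1.82 (edgeR adjusted p = 6.96e-06) and Atf3 by -1.31 (edgeR adjusted p = 0.0122), so that all 10 genes passed. The share of all genes called in that fit is not given, so this count is description only. The neutrophil markers moved the opposite way between these groups, as given above.

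Between the tissues, 2 of the 10 genes passed, Jun and Junb, both higher in spleen than in BM mature basophils, where 3.16% of all genes were called higher and 4.67% lower. The median log2 difference of the 10 genes (spleen mature minus BM mature) was 0.39, beside 0.005 over all genes. Jun was 1.60-fold higher in spleen (log2 0.67, SE 0.16, edgeR adjusted p = 0.0254) and Junb 1.43-fold higher (log2 0.52, SE 0.13, edgeR adjusted p = 0.0291). Both calls were lost in edgeR, with adjusted p from 0.0638 to 0.122, when any 1 of the 3 BM mature libraries or spleen replicate 2 or 3 was left out, although the log2 differences stayed between 0.59 and 0.70 for Jun and between 0.39 and 0.55 for Junb in those fits. Without BaP replicate 3, which is in neither group but enters the shared scaling, filter and estimate of the spread, 4 genes passed, Egr1 (log2 0.37, edgeR adjusted p = 0.0172) and Egr2 (0.58, edgeR adjusted p = 0.00711) being added. The number called over all genes between these groups also rose in that fit, as given in the last section.

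With all 12 libraries, Egr1 was 1.30-fold higher in spleen (95% interval of log2 -0.01 to 0.75, edgeR adjusted p = 0.209) and Egr2 1.501-fold higher (0.22 to 0.96, edgeR adjusted p = 0.053). For both genes every spleen library lay above every BM mature library, and the share of all tested genes for which this holds is not given. Egr3 differed by log2 0.45 (0.01 to 0.89, edgeR adjusted p = 0.19) and Nr4a1 by 0.41 (-0.76 to 1.58, edgeR adjusted p = 0.685). Jund, Fos and Fosb differed least. Jund had a log2 difference of 0.10 (-0.28 to 0.48, edgeR adjusted p = 0.774), Fos of -0.12 (-0.64 to 0.39, edgeR adjusted p = 0.799) and Fosb of -0.24 (-0.72 to 0.25, edgeR adjusted p = 0.557). The interval of Atf3 was wide, from -1.23 to 0.52 (edgeR adjusted p = 0.629). The 7 B cell markers summed to 199.6 to 342.1 CPM in spleen mature and 43.6 to 57.84 CPM in BM mature libraries, with 4 of 7 called higher in spleen, and their part in these differences was not tested.

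**Figure D3:**
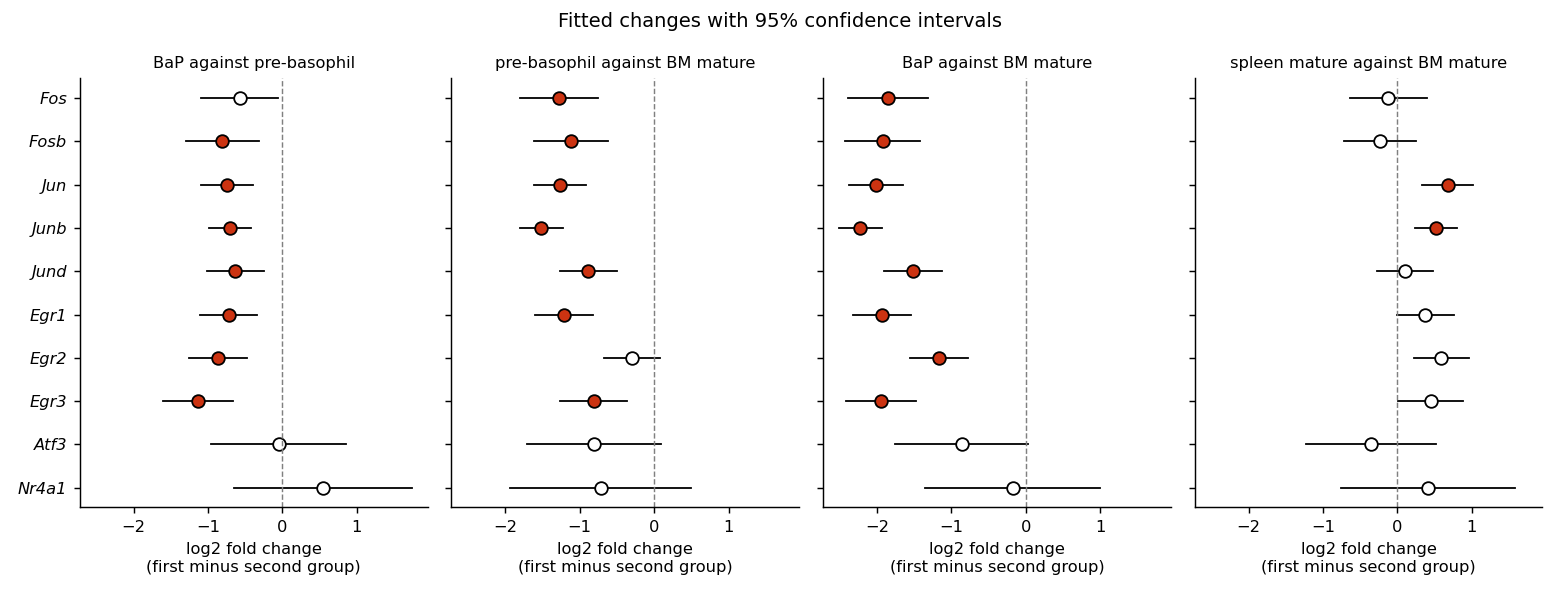
Points are fitted log2 fold changes (x axis, first minus second group) of the 10 genes (y axis) in the 4 comparisons, bars are 95% confidence intervals, and filled points passed an adjusted p of 0.05 in edgeR. The filled points are all below 0 in the 3 marrow comparisons (7, 7 and 8 genes) and above 0 for Jun and Junb in the spleen comparison. The intervals of Nr4a1 and Atf3 are the widest in every panel.

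The make-up of the AP-1 transcripts, described here without a test, was different in spleen, and among the JUN genes also in BM mature basophils. Fos and Fosb together held 56.3%, 54.2% and 47.0% of the summed counts of the 5 FOS and JUN genes in BaPs, 58.2%, 50.3% and 53.0% in pre-basophils, and 55.4%, 47.0% and 52.8% in BM mature basophils. In spleen mature basophils they held 45.1%, 32.1% and 40.1%, below all 9 marrow libraries. Among the 3 JUN genes, Jund held 25.7% ± 4.56 in BaPs, 24.2% ± 4.07 in pre-basophils, 18.8% ± 0.766 in mature cells of the marrow and 13.9% ± 0.270 in those of the spleen (SD, n = 3 each). Junb held 25.1% ± 2.56, 25.1% ± 1.44, 30.0% ± 0.595 and 29.6% ± 0.784 in the same order. Jun held 49.2% ± 6.50, 50.7% ± 3.81, 51.2% ± 1.201 and 56.4% ± 0.977. The share of Jund in spleen thus lay below, and did not overlap, that in every marrow group. In BM mature basophils it was 17.9% to 19.4%, already below every BaP and pre-basophil library (19.8% or more). The ratio of Fosb to Fos counts was 3.17 ± 0.894, 3.81 ± 1.25, 3.28 ± 0.593 and 3.08 ± 0.306, and all groups overlapped. These shares are in raw counts, in which longer transcripts may weigh more, and are compared only between groups.

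**Figure D4:**
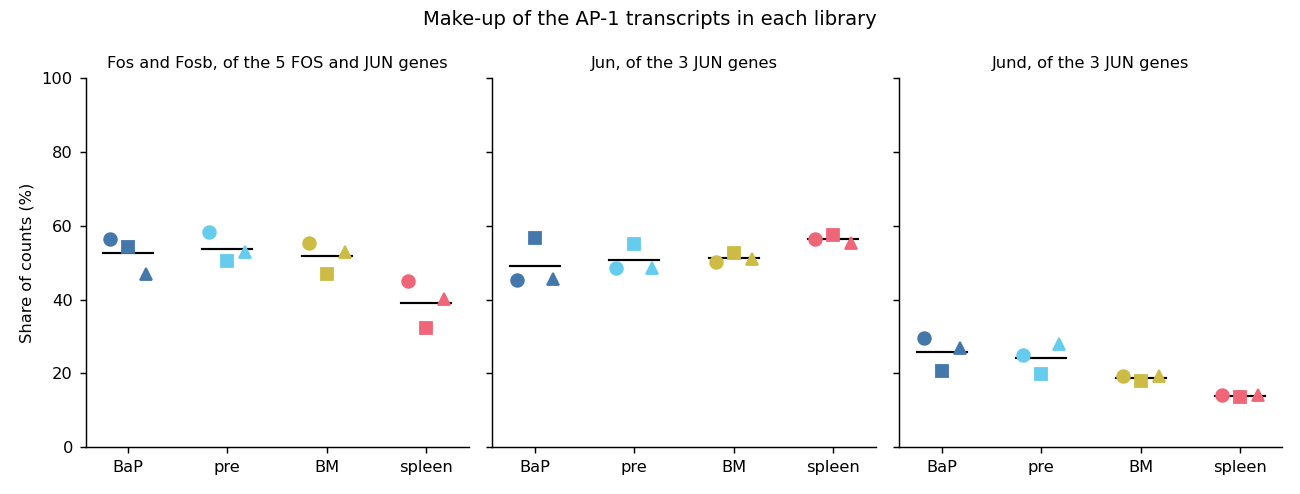
The panels give, in percent of counts (y axis), the part of Fos and Fosb among the 5 FOS and JUN genes, of Jun among the 3 JUN genes and of Jund among the 3 JUN genes. Symbols are single libraries by group (x axis) and lines are group means. The Fos and Fosb share lies at 32.1% to 45.1% in spleen against 47.0% to 58.2% in the marrow libraries, and the Jund share at 13.6% to 14.1% in spleen.

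Other genes of the pathway were counted by list, and each count is to be read against the shares of all genes called in the same comparison and direction. For pre-basophils against BM mature basophils these were 11.0% lower and 16.3% higher, for BaPs against pre-basophils 4.29% and 2.79%, for BaPs against BM mature basophils 19.7% and 25.3%, and for spleen against BM mature basophils 4.67% and 3.16%. They belong to the fit with all libraries and are no measure for the counts without BaP replicate 3. In that fit more of all genes were called between spleen and BM mature basophils.

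Other AP-1 genes were examined first. Of 10 tested genes for further FOS, BATF, ATF and small MAF proteins, 5 were lower and none higher in pre-basophils than in BM mature basophils (median log2 -0.61). Of these 10, 3 were lower in BaPs than in pre-basophils (median -0.24), and 4 without BaP replicate 3. Between BaPs and BM mature basophils 6 were lower and 1 higher (median -0.85), the higher call being lost without BaP replicate 3. Fosl1, which encodes a FOS protein without the activating domain of FOS, was at 34.7 ± 14.2 CPM in BaPs, at 87.5 ± 14.02 in pre-basophils, 174 ± 32.4 in mature cells of the marrow and 93.0 ± 22.8 CPM in those of the spleen. It was lower than BM mature in each of the other populations, with edgeR adjusted p = 0.0107 for pre-basophils, 1.1e-05 for BaPs and 0.0449 for spleen. Mafk, a small MAF gene, was 2.14-fold lower in pre-basophils than in BM mature basophils (edgeR adjusted p = 6.41e-05), and Fosl2 2.05-fold (edgeR adjusted p = 0.00843). In spleen, Batf was 1.70-fold higher (edgeR adjusted p = 0.0389) and Maff 1.47-fold lower (edgeR adjusted p = 0.0175) than in BM mature basophils, with a list median of -0.02. Atf4, the most abundant of the list, was at 562.8 ± 128 CPM in BaPs and 622 ± 21.8 CPM in BM mature basophils.

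A further 14 immediate-early genes and EGR co-repressors were tested. Pre-basophils had 4 lower and none higher than BM mature basophils (median log2 -0.44), BaPs 3 lower and 1 higher than pre-basophils (-0.33), and BaPs 7 lower and 2 higher than BM mature basophils (-0.76). In the last 2 comparisons, leaving out BaP replicate 3 gave 5 lower and 1 higher, and 7 lower and 1 higher. Ier5 was 3.99-fold lower in pre-basophils (edgeR adjusted p = 2.23e-05) and 5.80-fold lower in BaPs (edgeR adjusted p = 1.18e-06) than in BM mature basophils. Btg2, an antiproliferative gene, was 2.14-fold lower in pre-basophils (edgeR adjusted p = 9.26e-05), and Ier2, the most abundant of the list, 1.99-fold lower (edgeR adjusted p = 0.000996). Ier2 and Ier3 were each 1.67-fold lower in BaPs than in pre-basophils (edgeR adjusted p = 0.0246 and 0.0493). Myc, a driver of growth and proliferation, went the other way, 2.55-fold higher in BaPs than in pre-basophils (edgeR adjusted p = 0.0012), and it was 3.17-fold higher in spleen than in BM mature basophils (57.5 ± 9.27 against 18.2 ± 4.64 CPM, edgeR adjusted p = 0.000747). Nr4a2, a relative of Nr4a1, was 31.5 ± 42.9 CPM in BaPs and was called higher than in BM mature basophils (6.79 ± 4.01 CPM, edgeR adjusted p = 0.034), while without BaP replicate 3 its log2 difference was -0.07 (edgeR adjusted p = 0.901). In spleen, Csrnp1 was 1.80-fold lower (edgeR adjusted p = 0.0292) and Ier3 1.69-fold lower (edgeR adjusted p = 0.0431). With 1 higher and 2 lower the spleen list had a median of -0.09, and without BaP replicate 3 it had 4 higher and 5 lower with a median of 0.18.

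Genes upstream of the 10, namely MAP kinases, ribosomal S6 kinases, NFAT and the factors that bind immediate-early promoters, were examined as well. Of 22 tested, 6 were lower and 1 higher in pre-basophils than in BM mature basophils (median log2 -0.29), and 1 was lower in BaPs than in pre-basophils (-0.18). This single gene was Rps6ka1, a ribosomal S6 kinase, at 1.52-fold (edgeR adjusted p = 0.0167). Without BaP replicate 3, 4 were lower and 1 higher in that comparison. The single call is a share near the 4.29% of all genes. Between BaPs and BM mature basophils 13 were lower and 2 higher (-0.48), and 15 and 2 without BaP replicate 3. Mapk14, the p38 alpha kinase and the most abundant of the list, was at 134 ± 19.2 CPM in BaPs, at 168 ± 10.7 in pre-basophils, 391 ± 24.6 in mature cells of the marrow and 505 ± 22.6 CPM in those of the spleen, and its differences from BM mature basophils were 2.32-fold in pre-basophils (edgeR adjusted p = 1.05e-05) and 2.92-fold in BaPs (edgeR adjusted p = 4.97e-07). Mrtfa, a co-activator of serum response factor, was 2.05-fold lower in pre-basophils (edgeR adjusted p = 0.000862) and 1.61-fold higher in spleen (edgeR adjusted p = 0.0324) than in BM mature basophils. Elk4, a partner of the same factor, was 1.43-fold lower in pre-basophils (edgeR adjusted p = 0.0122), and Rps6ka3 was 1.81-fold lower in BaPs than in BM mature basophils (edgeR adjusted p = 8.47e-05). In spleen 3 were lower and 1 higher (-0.08), among them the MAP kinase kinase genes Map2k7 at 1.41-fold lower (edgeR adjusted p = 0.0313) and Map2k1 at 1.40-fold lower (edgeR adjusted p = 0.0406), and without BaP replicate 3 the counts were 6 and 2.

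Feedback inhibitors destroy the transcripts or silence the kinases. Of 13 tested, 5 were lower and none higher in pre-basophils than in BM mature basophils (median log2 -0.79), and 8 were lower without BaP replicate 3. BaPs had 4 lower than pre-basophils (-0.12), with or without that library, and 6 lower and 1 higher than BM mature basophils (-0.84), against 9 lower and none higher without BaP replicate 3. Zfp36, whose product degrades AU-rich transcripts, was at 2036 ± 272 CPM in BaPs, at 4502 ± 402 in pre-basophils, 15362 ± 1618 in mature cells of the marrow and 17307 ± 1001 CPM in those of the spleen. It was 3.41-fold lower in pre-basophils (edgeR adjusted p = 2.08e-06) and 7.55-fold lower in BaPs (edgeR adjusted p = 1.35e-08) than in BM mature basophils. Dusp1, a phosphatase of MAP kinases, was 1.85-fold and 3.19-fold lower in the same comparisons (edgeR adjusted p = 0.00374 and 1.42e-05), and Dusp5, of the same family, 3.16-fold lower in BaPs (edgeR adjusted p = 5.7e-05). Zfp36l1, a relative of Zfp36, was 1.79-fold lower in pre-basophils (edgeR adjusted p = 0.0392) and 2.41-fold lower in spleen (edgeR adjusted p = 0.0186) than in BM mature basophils. In the spleen all 5 called genes were lower than in BM mature basophils (-0.23), led by Tnfaip3, an inhibitor of NF-kappaB signalling, at 3.04-fold (1846 ± 574 against 5617 ± 1553 CPM, edgeR adjusted p = 0.00389), and with Dusp10 at 2.45-fold (edgeR adjusted p = 0.0358).

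Genes for heat shock proteins and other stress products that are known to rise during cell dissociation were examined in the same libraries. Of 19 tested, 6 were lower and 1 higher in pre-basophils than in BM mature basophils (median log2 -0.24), 2 were lower and 1 higher in BaPs than in pre-basophils (-0.15), and 8 were lower and 3 higher in BaPs than in BM mature basophils (-0.31). Without BaP replicate 3 these counts were 7 and 3, 3 and 2, and 9 and 5. Ppp1r15a, a stress-induced phosphatase subunit, was 2.48-fold lower in pre-basophils (edgeR adjusted p = 9.28e-06) and 4.25-fold lower in BaPs (edgeR adjusted p = 7.72e-08) than in BM mature basophils. Dnajb1, a co-chaperone, was 2.43-fold lower in pre-basophils (edgeR adjusted p = 0.000234) and 1.90-fold higher in spleen (edgeR adjusted p = 0.0118) than in BM mature basophils. Nfkbiz, a regulator of NF-kappaB targets, was 1.88-fold lower in BaPs than in pre-basophils (edgeR adjusted p = 0.00536) and 4.27-fold lower than in BM mature basophils (edgeR adjusted p = 5.92e-07). Some members went the other way. Hsp90ab1 was 1.48-fold higher in BaPs than in pre-basophils (edgeR adjusted p = 0.0372), Mt1, a metallothionein, was 7.33 ± 3.75 CPM in BaPs against 0.731 ± 0.403 CPM in BM mature basophils (edgeR adjusted p = 0.000916), and Icam1, an adhesion molecule, was 2.26-fold lower in spleen (edgeR adjusted p = 0.00112). The spleen list, with 2 higher and 1 lower, had a median of 0.27, and 3 were higher and 3 lower without BaP replicate 3. The 21 genes in the table summed to 7428 ± 893, 9412 ± 935, 17727 ± 1916 and 24716 ± 5451 CPM from BaPs to spleen, the same order of groups as for the 10 genes, and the part of dissociation in the levels of the 10 genes was not tested.

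Products of activated basophils were examined last. Of 11 cytokine, chemokine and activation genes tested, 11 were lower in BaPs than in pre-basophils (median log2 -1.12) and 10 in BaPs than in BM mature basophils (-1.49), while pre-basophils had 5 lower and 1 higher than BM mature basophils (-0.37). The same comparisons of BaPs without BaP replicate 3 had 11 lower, and 10 lower and 1 higher. Ccl4, a chemokine gene and the most abundant of the list, was at 2801 ± 267 CPM in BaPs, at 8257 ± 533 in pre-basophils, 22110 ± 2209 in mature cells of the marrow and 16908 ± 1536 CPM in those of the spleen. It was 2.95-fold lower in BaPs than in pre-basophils (edgeR adjusted p = 3.05e-05), and its neighbour Ccl3 2.82-fold lower (edgeR adjusted p = 9.72e-05). Osm, a cytokine gene, was 2.92-fold lower in pre-basophils than in BM mature basophils (edgeR adjusted p = 4.11e-05) and 6.73-fold lower in BaPs (edgeR adjusted p = 1.96e-07). Il13, a type 2 cytokine gene, was 3.89-fold lower in BaPs than in pre-basophils (edgeR adjusted p = 0.0235). In spleen 5 of the 11 were lower than in BM mature basophils and none higher (-0.58), and 7 were lower without BaP replicate 3. Tnf was 4.23-fold lower (36.3 ± 7.58 against 153 ± 13.9 CPM, edgeR adjusted p = 0.000773), Il6 4.02-fold lower (588 ± 94.8 against 2365 ± 663 CPM, edgeR adjusted p = 0.00221) and Cd69, an early activation antigen, 2.54-fold lower (edgeR adjusted p = 0.00274). Jun and Junb were higher in the same spleen libraries, in calls that depended on single libraries. The other 8 of the 10 genes were not called there, and Fos, Fosb and Atf3 had log2 differences below 0. The difference between these directions was not itself tested. Of the genes named from the 6 lists, all except Nr4a2 kept their call and direction without BaP replicate 3.

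**Figure D5:**
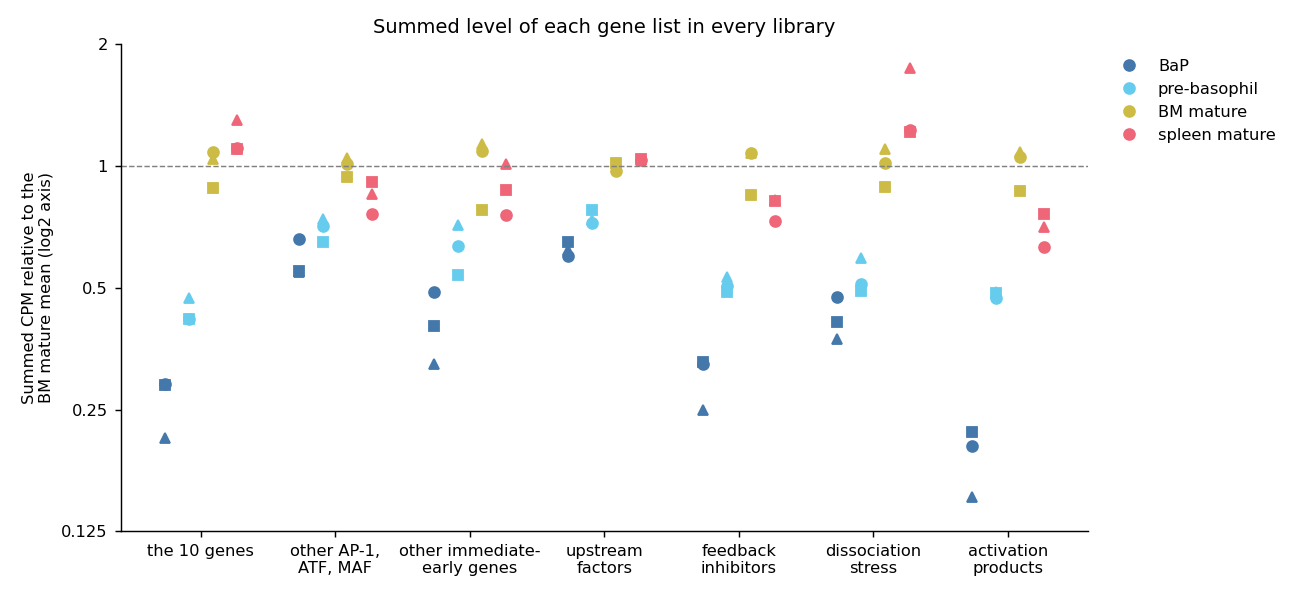
The summed CPM of each list in each library (symbols) is drawn relative to the mean of BM mature basophils, on a log2 y axis, for the 10 genes and 6 other lists (x axis). Shapes give the replicate as in the plot of single genes. The 10 genes and the dissociation stress genes lie above the line at 1 in the spleen libraries, while the feedback inhibitors and activation products lie below it there, and all lists lie below 1 in BaPs and pre-basophils.

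Within the 10 genes the profiles were alike except for Atf3 and Nr4a1. Pearson's r of the log2 CPM of each gene with the mean profile of the other 9 over the 12 libraries was 0.978 for Junb, 0.967 for Jund, 0.957 for Jun, 0.945 for Egr1, 0.932 for Egr3, 0.919 for Fos, 0.914 for Fosb and 0.854 for Egr2. It was 0.526 for Nr4a1 and 0.516 for Atf3. Outside the 10 genes, the 5 whose log2 CPM had the highest Pearson's r with their mean profile, among 8429 genes of at least 10 CPM, were Gpx4-ps2 and Neat1 (0.991 each) and Pip4k2a, Ncor1 and Zc3hav1 (0.990 each). Neat1, a nuclear long non-coding RNA, was at 501.8 CPM in BaPs, at 951 in pre-basophils, 2305 in mature cells of the marrow and 3121 CPM in those of the spleen. These correlations describe 12 libraries that fall into 4 groups, and any gene that rises from BaPs to spleen has a high value.

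The positions of the genes bear on how far their counts can be attributed. On GRCm38 in GENCODE M21, Jun (chr4:95049034-95052222) and Jund (chr8:70698949-70700616) each have a single exon and lie across from an antisense gene, Junos and Gm11175. Junb (chr8:84974484-84978718) overlaps Prdx2 on the opposite strand. The sources used here do not say whether the counting used strand, so that reads of these pairs cannot be told apart with certainty. Junos held 65 to 330 counts in a library, Gm11175 131 to 488 and Prdx2 161 to 793, all far below the lowest counts of Jun (15903), Jund (7700) and Junb (8396). Fos (chr12:85473890-85477273), Fosb (chr7:19302696-19310051), Egr2 (chr10:67535475-67542188), Egr3 (chr14:70077203-70082614) and Nr4a1 (chr15:101254269-101274795) overlap no annotated gene, and Atf3 (chr1:191170296-191218039) contains a small RNA gene.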

How the data were processed

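Sorted basophil-lineage cells from bone marrow and spleen were profiled by bulk RNA-seq, with 3 libraries of pooled animals in each of 4 groups taken from the sample labels. All libraries came from a single experiment. The authors lysed the cells, amplified the complementary DNA of polyadenylated RNA, trimmed reads with Cutadapt 3.4, mapped them with Bowtie2 2.4.2 to reference transcripts and deposited raw read counts per gene symbol. The study's methods name the GRCm38 assembly, whereas the submitters' processing notes name GRCm39. Gene coordinates here are those of GENCODE M21 on GRCm38. The sources used here do not give the handling of strand or of reads matching several genes, no molecular identifiers are mentioned, and PCR copies count as separate reads, so that precision from depth covers counting error only.

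Counts were filtered with filterByExpr, scaled with the trimmed mean of M values method (TMM), and fitted over all 12 libraries with 1 coefficient per group in edgeR 4.0.16 (R 4.3.3). The quasi-likelihood F test was used, p-values were adjusted by Benjamini-Hochberg over 15083 genes, and an adjusted p under 0.05 was called. Fold changes, their standard errors and 95% confidence intervals are those of the model. CPM use TMM-scaled totals. The study's own package, TCC, was not used here. Within-group pairs of libraries differed by 4.16 to 35.0 in chi-square per degree of freedom, so each library was counted once. Because nothing says that pools were of separate litters or days, p-values measure the spread between these libraries.

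The members and lists were chosen with earlier results of these data known. All 10 genes were named. In each other list the 3 called genes with the largest change in a comparison and the most abundant gene were named, as were the 5 genes of at least 10 CPM most correlated with the mean profile. Other genes were named as partners by position. The values of 1 gene that this rule selects are not reported here. Promoter windows came from RefSeq, and exon lengths were found for 14635 of the tested genes.

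The labels number replicates alike in every group. The correlation of deviations from group means was over 0.1 in all 9 same-numbered marrow pairs and in none of 9 pairs with spleen (over all 18, lowest 0, highest 0.262). Each of the 12 libraries, including those of spleen, correlated best with a library of its own number in another group. The main fit nevertheless used the group alone, without pairing. The replicate number was fitted as a block in an alternative. Other alternatives were other scalings (relative log expression, upper quartile, library totals), other filters on low counts, DESeq2 1.42.0, voom in limma 3.58.1, a test against a minimum change of 1.5-fold, fits of only the 2 groups compared, and fits without each library. Scaling without the 10 genes and fits without BaP replicate 3 in further comparisons were added after seeing the data.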

Additional observations from a re-analysis of the deposited data

How the results depend on the processing

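Of the 40 differences (10 genes in 4 comparisons), 5 changed sign under an alternative. Nr4a1 between BaPs and pre-basophils was log2 0.54 with all libraries and, without 1 library, ran from -1.11 (BaP replicate 3) to 0.965 (BaP replicate 2). The other 4 were not called with all libraries. They were Atf3 between BaPs and pre-basophils (0.192 with library totals alone, -0.518 to 0.257 without 1 library), Nr4a1 between BaPs and BM mature basophils (0.343, and -1.82 to 0.257), and, between spleen and BM, Fos (0.015, and -0.282 to 0.108) and Jund (-0.012 to 0.194 without 1 library). The number of the 10 genes called lower in pre-basophils than in BM mature basophils was 7 and became 4 with a minimum change of 1.5-fold. Between BaPs and pre-basophils it was 7 and became 0 with that minimum (2 at an unadjusted p under 0.05 in edgeR's glmTreat, 7 in DESeq2 and in voom) and 3 in a fit of those 2 groups alone, and without 1 library it ranged from 2 (pre-basophil replicate 2) to 8 (BaP replicate 3). Between spleen and BM mature basophils it was 2 and became 0 with that minimum (0 at an unadjusted p under 0.05 in glmTreat, 3 in DESeq2 and 2 in voom), 4 with library totals alone and 4 with no filter. Without 1 library it ranged from 0 to 4: it was 0 in edgeR (3 to 5 at an unadjusted p under 0.05) without BM mature replicate 1, 2 or 3 or spleen replicate 2 or 3, 2 without spleen replicate 1 and 4 without BaP replicate 3. Egr2 passed in spleen under library totals, upper quartile scaling, no filter, DESeq2 and the fit of those 2 groups. The replicate block gave 3 genes there, with Egr2 added (adjusted p = 0.0283 in edgeR), although no same-numbered pair with spleen correlated over 0.1. The block changed no call in the marrow other than those of Atf3 given above. Counts between BaPs and BM mature basophils, and for any difference, stayed within 8 to 10 of 10.

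Library totals alone moved the median log2 difference of all genes to 0.218 for pre-basophils against BM mature basophils, 0.228 for BaPs against pre-basophils, 0.481 for BaPs against BM mature basophils and 0.135 for spleen, and the share of all called genes that were lower fell from 40.2% to 17.5%, 60.6% to 20.4%, 43.7% to 17.1% and 59.6% to 39.4%. The called differences of the 10 genes kept their directions there. Over all genes the number called between BaPs and pre-basophils was 1068 and ranged from 51 (minimum change) to 2091 (no filter), that between spleen and BM mature basophils was 1181 and ranged from 62 to 2653 (without BaP replicate 3), and that between pre-basophils and BM mature basophils was 4112 and became 1219 with the minimum change, as 6785 became 3367 between BaPs and BM mature basophils. As a percentage of TMM-scaled totals the 10 genes held 2.12% in BaPs and 8.05% in BM mature basophils. Of totals without ribosomal RNA and mitochondrial genes they held 2.68%, 3.90%, 7.67% and 9.69% from BaPs to spleen. Atf3, Nr4a1, Egr2 and Egr3 had the lowest counts of the 10 genes, with as few as 53 reads in a library. Between pre-basophils and BM mature basophils the SE was 0.175 for Egr2, 0.209 for Egr3, 0.421 for Atf3 and 0.565 for Nr4a1. It was 0.244 for Fos. The part of depth in these values, and the causes of the changes between settings, were not tested.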
